A study of Mus musculus with 8 samples.

Results

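Ribosome biogenesis factors are the proteins that transcribe, modify, cut and fold ribosomal RNA and assemble it with ribosomal proteins in the nucleolus. The set described here holds 40 genes out of 21634 genes tested, named by function and read by every array probe whose gene name in the scanner files is the symbol or an older alias (Nol5a for Nop56, Nola1 for Gar1, Nola2 for Nhp2). All 40 were found, on 64 probes, and all 40 passed the filter on dim probes through at least 1 probe.

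RNA was profiled on 1-colour Agilent arrays, 1 array per sample, from colon of adult C57BL/6 mice. The 4 tumor samples, labelled colon adenoma, carried the genotype Tcf4Het ApcHet, and the 4 samples of normal colon carried TCF4WT ApcHet. All 8 samples were thus heterozygous for Apc, and the tumor state cannot be told apart from the Tcf4 genotype. The protocol names the distal 2.5 cm of colon of littermates as the source. By these genotypes no normal sample came from the same mouse as one of the 4 tumor samples. The labels do not say if the normal samples were taken beside other tumors. Tissue was taken whole, so fewer cells of a type and less RNA per cell cannot be told apart. Each p-value sets a difference against the spread between samples within a group.

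Ribosome production starts with RNA polymerase I, which transcribes the long precursor of most ribosomal RNA. Small nucleolar ribonucleoproteins of the box C/D kind methylate it and those of the box H/ACA kind turn uridines into pseudouridines, and separate sets of assembly factors then build the small and the large subunit. In gut epithelium the process is most active in dividing crypt cells, and the transcription factor Myc, a target of Wnt signalling, is known to drive many of its genes.

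Values are the authors' log2 table, and differences are tumor minus normal on that scale. Sample identity differs between the scanner files and that table: 4 of its 8 columns (tumors 1 and 2, normals 1 and 2) have the rank order of a scanner file (Spearman correlation 1.0), and for just 1 of these, tumor 1, the file is that of its own sample. Samples were taken from the column labels, and every result below uses them unless stated. Pearson correlations over all genes ran from 0.947 to 0.965 between normal 3, as labelled, and each tumor, and from 0.872 to 0.941 between it and each other normal. Because leaving it out moved many counts, results are also given without it. The tissue label was checked on 9 colon markers, among them the chloride exchanger gene Slc26a3 and the water channel gene Aqp8. Their mean was 15.35 to 15.80 in normals and 13.68 to 14.70 in tumors. All 9 were lower in tumors, with a median of -1.37, and 5 of 9 fell by the limma test (2 when equal replicate numbers are paired, 9 without normal 3). Over all genes 7.54% fell, and 19.8% without normal 3. The mean of 10 small intestine markers peaked in normal 3 (11.62), while normals 1, 2 and 4 gave 9.39 to 10.29 and tumors 8.95 to 10.79.

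Most of the 40 factors were higher in tumors. Of the 40, 16 rose, 1 fell (Imp4) and 23 did not pass the limma test at an adjusted p of 0.05, where 7.00% of all genes rose and 7.54% fell. The difference was above 0 for 37 of 40 factors, against 57.9% of all genes, and all 4 tumors lay above all 4 normals for 27 factors, against 11.9% of all genes. Set against the 3 normals other than normal 3, the tumors lay above for 32 factors and 33.3% of all genes. The median difference over the factors was 0.62, against 0.15 over all genes tested. At an unadjusted p under 0.05, 31 factors were higher, against 16.2% of all genes. With equal replicate numbers taken as pairs (a block in the fit), 6 factors rose (Fbl, Ppan, Nip7, Rrs1, Wdr12 and Noc2l) and Imp4 fell, where 3.66% of all genes rose. Without normal 3, 26 rose and 2 fell, where 31.7% and 19.8% of all genes did. Leaving out any 1 of tumors 1 to 3 or of normals 1, 2 and 4 left 0 to 2 factors past the threshold. In those fits 0.0740% to 1.79% of all genes rose. The median difference stayed between 0.54 and 0.70 over all 8 fits that left out 1 sample. When every column was centred on the median of the genes tested, 11 factors rose and the median was 0.49, with the split over all genes moving from 1515 higher and 1632 lower to 1073 and 2020. With scanner values as filed, 0 factors passed limma (0 higher at an unadjusted p under 0.05), and 14 of 40 were above 0.

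**Figure D1:**
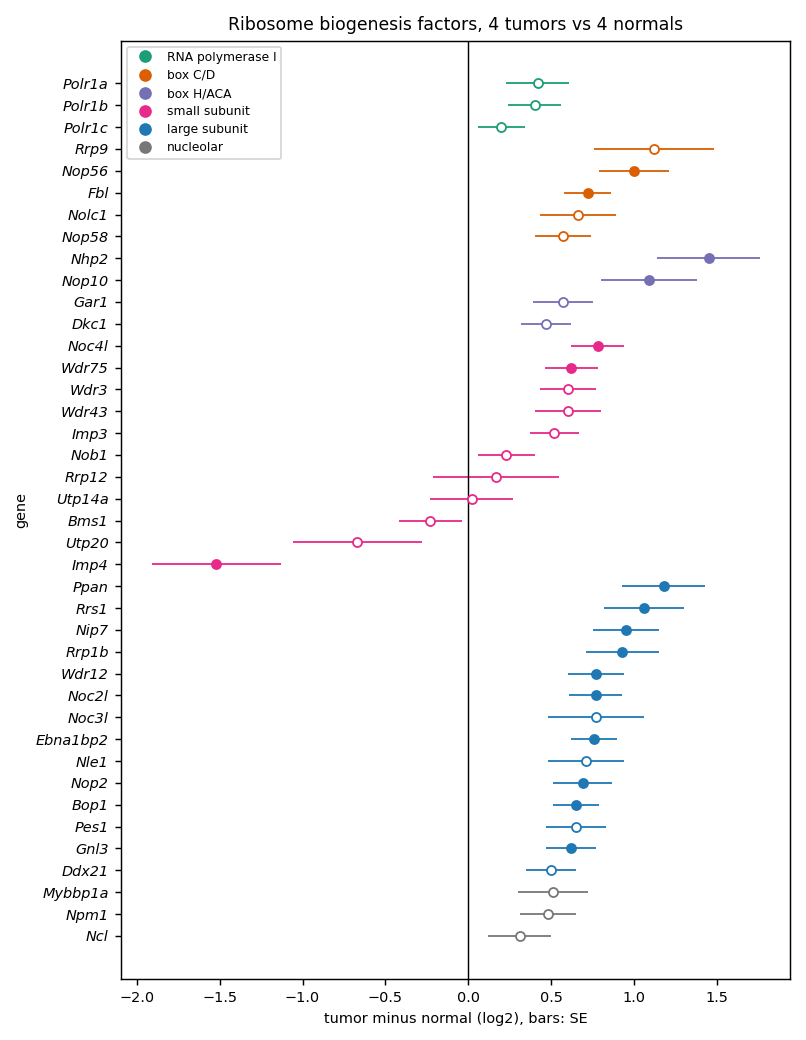
Tumor minus normal difference of each of the 40 factors on the log2 scale, with the standard error as a bar, coloured by role. Filled points passed the limma test at an adjusted p of 0.05 over all genes: 16 lie to the right of 0 and 1, Imp4 at -1.52, to the left.

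The promoters of 4 factors are shown because these genes cover the range of responses: the largest rise (Nhp2), a rise with an E-box (Nop2), a difference just short of the threshold with an E-box (Pes1) and the fall (Imp4). Each runs from 250 bases before to 50 bases after the annotated start in RefSeq on GRCm38.p6, 5′ to 3′ on the gene's strand, all 4 of them on the plus strand. Capitals mark CACGTG, the E-box letters that Myc with its partner Max is known to bind. Nhp2 lies at chr11:51619523-51619822, Nop2 at chr6:125131633-125131932, Pes1 at chr11:3963725-3964024 and Imp4 at chr1:34439579-34439878.
Nhp2: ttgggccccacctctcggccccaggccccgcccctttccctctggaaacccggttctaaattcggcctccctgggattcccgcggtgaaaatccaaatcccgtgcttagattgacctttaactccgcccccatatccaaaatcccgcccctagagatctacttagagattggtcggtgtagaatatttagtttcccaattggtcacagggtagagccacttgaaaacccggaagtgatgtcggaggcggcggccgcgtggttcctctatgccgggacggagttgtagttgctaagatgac
Nop2: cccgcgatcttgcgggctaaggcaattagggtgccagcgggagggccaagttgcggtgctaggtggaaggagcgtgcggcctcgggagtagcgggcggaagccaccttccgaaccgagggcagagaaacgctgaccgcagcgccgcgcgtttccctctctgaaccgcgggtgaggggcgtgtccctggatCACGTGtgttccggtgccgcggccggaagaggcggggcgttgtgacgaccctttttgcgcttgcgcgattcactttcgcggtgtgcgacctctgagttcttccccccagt
Pes1: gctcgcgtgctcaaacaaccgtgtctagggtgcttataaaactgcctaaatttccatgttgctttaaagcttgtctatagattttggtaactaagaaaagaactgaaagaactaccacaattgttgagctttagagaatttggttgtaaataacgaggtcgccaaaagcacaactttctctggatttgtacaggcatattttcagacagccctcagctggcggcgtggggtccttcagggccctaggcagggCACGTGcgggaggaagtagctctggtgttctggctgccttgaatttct
Imp4: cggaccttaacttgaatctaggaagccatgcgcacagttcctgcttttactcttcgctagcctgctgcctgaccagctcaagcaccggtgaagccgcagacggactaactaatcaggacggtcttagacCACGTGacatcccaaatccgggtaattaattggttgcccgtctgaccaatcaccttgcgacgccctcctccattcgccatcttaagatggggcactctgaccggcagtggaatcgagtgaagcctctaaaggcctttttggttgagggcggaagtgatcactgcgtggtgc
The letters CACGTG, the same on both strands, start at base 191 of the Nop2 window, base 253 of the Pes1 window and base 130 of the Imp4 window, and do not occur in the Nhp2 window. Of the 40 factors, 35 had a promoter in the table, and 7 of these 35 (20.0%) held CACGTG: Imp4, Mybbp1a, Nle1, Nop2, Pes1, Utp20 and Wdr43. The share was 8.09% among all genes with a promoter and 7.15% among all windows of this length. Of the 13 factors that rose and had a promoter, 1 held it (Nop2), against 6 of the 22 others. These matches are letters in a window, not measured binding.

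Of the 3 subunits of RNA polymerase I, 0 passed the test, and all 3 differences were above 0. Polr1b, which encodes the second largest subunit, was at 11.47, 11.90, 11.50 and 11.36 in tumors 1 to 4 and at 11.06, 11.13, 11.37 and 11.06 in normals 1 to 4. The groups met at tumor 4, which lay just under normal 3. The difference was 0.40 ± 0.16 (SE, adjusted p = 0.129). Without normal 3 it was 0.47 (adjusted p = 0.0445), in a fit where 31.7% of all genes rose. Its second probe was below the detection limit on all 8 arrays. Polr1a, the gene of the largest and catalytic subunit, differed by 0.42 ± 0.19 (adjusted p = 0.164), and Polr1c, whose product is shared with RNA polymerase III, by 0.20 ± 0.14 (adjusted p = 0.283).

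Of the 5 box C/D factors, 2 rose, Fbl and Nop56, where 7.00% of all genes rose. The differences of all 5 were between 0.57 and 1.12. With the block 1 of them rose, Fbl, where 3.66% of all genes did. Fibrillarin, encoded by Fbl, is the methyltransferase of these particles. Its value was 17.20, 17.63, 17.36 and 17.26 in tumors 1 to 4 and 16.54, 16.73, 16.70 and 16.60 in normals 1 to 4. Every tumor was above every normal, with a spread of 0.19 (SD, n = 4) among tumors and 0.09 (SD, n = 4) among normals. Fbl rose by 0.72 ± 0.14 (SE), 1.65-fold, past the threshold in both fits (adjusted p = 0.0215, and 0.04545 when blocked). Fbl was read by a probe on chromosome 7, from 27887942 to 27888001 in mm8.

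Nop56 encodes a core scaffold of the box C/D particle. Tumors 1 to 4 were at 15.53, 16.06, 15.62 and 15.42, and normals 1 to 4 at 14.50, 14.52, 15.11 and 14.50. Normal 3 stood above the other normals and still below every tumor. The rise was 1.0 ± 0.21 (SE), 2.0-fold (adjusted p = 0.0248, 0.0525 when blocked), and 1.15 without normal 3. It was read on chromosome 2 at 129970687 to 129970750 (mm8). A dimmer probe at 129970194 to 129970253, designed on another transcript record, gave -0.26 ± 0.55, and the mean of both probes missed the threshold (0.37, adjusted p = 0.323). Its partner Nop58 differed by 0.57 ± 0.17 (adjusted p = 0.0571), with all tumors above all normals. Nolc1, a chaperone of these particles, also had tumors above normals (0.66 ± 0.23, adjusted p = 0.0903). Rrp9 had the largest difference of the 5 (1.12 ± 0.36, adjusted p = 0.0752), but normal 3, at 11.67, overlapped the tumors at 11.45 to 12.08, while the other normals were at 11.01 or below.

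All 4 core proteins of the box H/ACA particles, which also form part of telomerase, had tumors above normals, as did 11.9% of all genes. Of the 4, 2 rose (0 with the block), where 7.00% of all genes did (3.66% with the block). Nhp2 had the largest rise of the 40 factors. It was at 15.54, 15.93, 15.67 and 15.43 in tumors 1 to 4 and at 14.32, 13.72, 15.00 and 13.71 in normals 1 to 4. The tumors lay close together (SD 0.21, n = 4) and the normals apart (SD 0.61, n = 4), with normal 3 highest and normals 2 and 4 lowest. Nhp2 rose by 1.45 ± 0.31 (SE), 2.74-fold (adjusted p = 0.0249, 0.0501 when blocked), or by 1.72 without normal 3. Its probe is on chromosome 11 at 51466548 to 51466607 (mm8).

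Nop10 encodes the smallest of the 4 proteins. It was at 14.70, 15.10, 15.11 and 14.88 in tumors 1 to 4 and at 14.07, 13.32, 14.60 and 13.45 in normals 1 to 4. The order of the normals was that of Nhp2 apart from normals 2 and 4, with tumor 1 just above normal 3. The rise was 1.09 ± 0.29 (SE), 2.13-fold, close to the threshold (adjusted p = 0.0473, 0.0685 when blocked), and the call was lost in the centred fit (adjusted p = 0.0527), without the filter on dim probes (adjusted p = 0.0622) and with probes averaged in all genes (adjusted p = 0.0508). Gar1 differed by 0.57 ± 0.18 (adjusted p = 0.0748). Dkc1, the gene of dyskerin, the pseudouridine synthase itself, differed by 0.47 ± 0.15 (adjusted p = 0.0811), and its second probe by -0.03 ± 0.30.

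The factors of the small subunit were mixed. Of 11, 2 rose (0 with the block), 1 fell and 8 did not pass, with differences from -1.52 to 0.78 and a median of 0.23. Among all genes 7.00% rose (3.66% with the block) and 7.54% fell, with a median of 0.15. Noc4l, needed for export of the small subunit precursor, was at 11.91, 12.17, 11.80 and 11.71 in tumors 1 to 4 and at 11.11, 11.03, 11.38 and 10.95 in normals 1 to 4. The groups stayed apart by more than the spread within either (SD 0.20 and 0.19, n = 4 each). Noc4l rose by 0.78 ± 0.16 (SE), 1.72-fold (adjusted p = 0.0235, 0.0542 when blocked). Wdr75, a subunit of the complex that binds the nascent precursor RNA, was at 13.52, 13.77, 13.45 and 13.35 in tumors 1 to 4 and at 12.74, 13.17, 12.94 and 12.75 in normals 1 to 4. All tumors exceeded the highest normal, normal 2. The rise was 0.62 ± 0.16 (SE), 1.54-fold (adjusted p = 0.0404, 0.0519 when blocked, 0.0956 in the centred fit and 0.0551 without the filter on dim probes). Wdr3, Imp3 and Wdr43 had differences of 0.60, 0.52 and 0.60 and missed the threshold (adjusted p = 0.0573, 0.0579 and 0.0805). All 3 passed without normal 3 (adjusted p = 0.0353, 0.0153 and 0.0164), in a fit where 31.7% of all genes rose.

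Imp4 moved the other way. It encodes a partner of Imp3 and of Mphosph10 in the processome that makes the first cuts of the precursor. Tumors 1 to 4 were at 8.07, 8.47, 6.99 and 7.12, and normals 1 to 4 at 9.20, 9.79, 8.72 and 9.03. Every normal was above every tumor, and tumors 3 and 4 were lowest. The fall of Imp4 was -1.52 ± 0.39 (SE), or 2.87-fold lower (adjusted p = 0.0417, 0.0362 when blocked). It is read by 1 probe, on chromosome 1 at 34389671 to 34389730 (mm8), on the strand of the gene. All 8 arrays were above the detection limit of 5.59, which was set from the 4 traced columns. The columns of tumors 3 and 4 were not traced, so their background level is not known. Their values lie under the 7.70 that normal 1 alone gave when the limit was set. Whether they are background was not tested. Over the 4 traced columns alone the difference was -1.23. The call was lost without the filter on dim probes (adjusted p = 0.0553) and when any sample other than normal 3 was left out (highest adjusted p = 0.111).

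Utp20, a large scaffold of the same processome, had probes of opposite sign. Its brighter probe was at 12.40, 12.98, 12.40 and 12.92 in tumors 1 to 4 and at 12.90, 14.12, 12.44 and 13.90 in normals 1 to 4. Normals 2 and 4 stood above the other 6 samples. The difference was -0.67 ± 0.39 (adjusted p = 0.235). Without normal 3 it was -0.96 (adjusted p = 0.0447), in a fit where 19.8% of all genes fell. A second probe gave 1.31 ± 0.66 (adjusted p = 0.196 over probes). The mean of 7 smooth muscle markers was also highest in normals 2 and 4 (16.27 and 16.18), against 14.95 and 13.95 in normals 1 and 3 and 14.33 to 15.47 in tumors. So was the mean of 8 epithelial markers (17.83 and 17.80, against 17.36 to 17.52 in the other 6 samples). Of these markers 0 passed the test in either list, and the part of either list in the values of Utp20 was not tested. Bms1, Nob1, Rrp12 and Utp14a had overlapping groups and differences of -0.23, 0.23, 0.17 and 0.02 (adjusted p = 0.366, 0.328, 0.742 and 0.965).

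Large subunit factors had the most calls: 10 of 14 rose (5 with the block), 0 fell, and 13 of 14 had all tumors above all normals. Over all genes 7.00% rose (3.66% with the block), 7.54% fell, and 11.9% had all tumors above all normals. The median difference was 0.77, and the range was 0.50 to 1.18. That their share differs from that of the small subunit factors was not tested. Among further genes outside the 40, given below, 11 of 51 of the large subunit and 13 of 45 of the small subunit rose. Ebna1bp2, a scaffold of early large subunit precursors, was at 15.89, 16.18, 15.79 and 15.73 in tumors 1 to 4 and at 15.19, 15.08, 15.26 and 15.01 in normals 1 to 4. The lowest tumor was above the highest normal. It rose by 0.76 ± 0.14 (SE), 1.70-fold (adjusted p = 0.0211, 0.0507 when blocked). A dimmer probe on the same chromosome 4 locus gave -0.43 ± 0.16 (adjusted p = 0.108 over probes), and the mean of both missed the threshold (0.16, adjusted p = 0.40).

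Noc2l accompanies the precursor from the nucleolus into the nucleoplasm. It was at 14.68, 14.98, 14.71 and 14.50 in tumors 1 to 4 and at 13.77, 13.95, 14.21 and 13.83 in normals 1 to 4. No tumor overlapped a normal. The rise was 0.77 ± 0.16 (SE), 1.71-fold (adjusted p = 0.0247, 0.04997 when blocked). A dimmer probe gave 0.42 ± 0.16 (adjusted p = 0.123 over probes), and the mean of both passed (0.59, adjusted p = 0.0446). Noc3l, the partner of Noc2l, differed by the same 0.77 with a larger error (± 0.29, adjusted p = 0.115).

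Nip7, which acts late in maturation of the large subunit RNA, was at 15.02, 15.09, 14.91 and 14.47 in tumors 1 to 4 and at 13.99, 13.72, 14.30 and 13.67 in normals 1 to 4. Tumor 4 was the lowest tumor and lay above normal 3, the highest normal. It rose by 0.95 ± 0.20 (SE), 1.93-fold (adjusted p = 0.0269, 0.0474 when blocked). A dimmer probe, listed in the scanner files under another name, gave 0.32 ± 0.23 for Nip7, and the mean of both missed the threshold (0.64, adjusted p = 0.087).
Ppan, also a factor of large subunit RNA maturation, had the largest difference of the large subunit factors. Its tumors were at 13.56, 14.60, 14.08 and 13.80 and its normals at 12.74, 12.99, 13.11 and 12.49, in the order 1 to 4. The spread was wider than in Noc2l (SD 0.44 and 0.28, n = 4 each), and the groups did not overlap. Ppan rose by 1.18 ± 0.25 (SE), 2.26-fold (adjusted p = 0.0269, 0.0415 when blocked).

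The complex of Pes1, Bop1 and Wdr12 is needed for processing of the large subunit RNA. Bop1 rose by 0.65 ± 0.14 (adjusted p = 0.0291, 0.0593 when blocked) and Wdr12 by 0.77 ± 0.17 (adjusted p = 0.0298, 0.0497 when blocked). Dimmer probes of Wdr12 gave 0.55 ± 0.25 and 0.19 ± 0.27 (adjusted p = 0.173 and 0.596 over probes). Pes1 had the same 0.65 as Bop1 and missed the threshold by little (± 0.18, adjusted p = 0.0516), with normal 3 the highest normal, the others at 13.30 to 13.54 and the tumors at 14.11 to 14.49. On the brightest probe of each, all 3 genes kept the tumors above the normals. Rrs1, which helps bring in the small ribosomal RNA made by RNA polymerase III, rose by 1.06 ± 0.24 (adjusted p = 0.0306, 0.0475 when blocked). Rrp1b rose by 0.93 ± 0.22 (adjusted p = 0.0343, 0.0528 when blocked). All 4 of its probes were above 0, but the dimmer ones did not pass. These were at 0.57 ± 0.28, 0.81 ± 0.30 and 1.21 ± 0.68 (adjusted p = 0.189, 0.115 and 0.221 over probes). Nop2, an RNA methyltransferase also known as a proliferation antigen, rose by 0.69 ± 0.18 (adjusted p = 0.0444, 0.0589 when blocked). Gnl3, or nucleostemin, rose by 0.62 ± 0.15 (adjusted p = 0.0375, 0.0511 when blocked). The helicase gene Ddx21 and Nle1 were at 0.50 and 0.71 (adjusted p = 0.0606 and 0.0821).

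The abundant nucleolar proteins did not pass on their brightest probes. Npm1, nucleophosmin, is a chaperone that holds the outer layer of the nucleolus together. It was at 17.62, 17.98, 17.65 and 17.68 in tumors 1 to 4 and at 17.26, 16.91, 17.25 and 17.59 in normals 1 to 4. The groups touched closely, with normal 4 at 17.59 just under tumor 1. The difference was 0.48 ± 0.17 (SE, adjusted p = 0.106), and a second probe of Npm1 passed the test over probes (0.61 ± 0.14, adjusted p = 0.0317). The mean of both probes also passed, by little (0.54, adjusted p = 0.0494). Npm1 has processed copies elsewhere in the genome, so its signal is uncertain. Ncl, nucleolin, was at 16.53, 17.17, 16.60 and 16.61 in tumors 1 to 4 and at 16.21, 16.64, 16.28 and 16.55 in normals 1 to 4. The groups overlapped, with normals 2 and 4 above the lowest tumor. The difference was 0.31 ± 0.19 (adjusted p = 0.252), and its 4 probes ranged from -0.12 to 0.50. Mybbp1a, which binds Myb and represses RNA polymerase I, was at 0.51 ± 0.21 (adjusted p = 0.142).

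**Figure D2:**
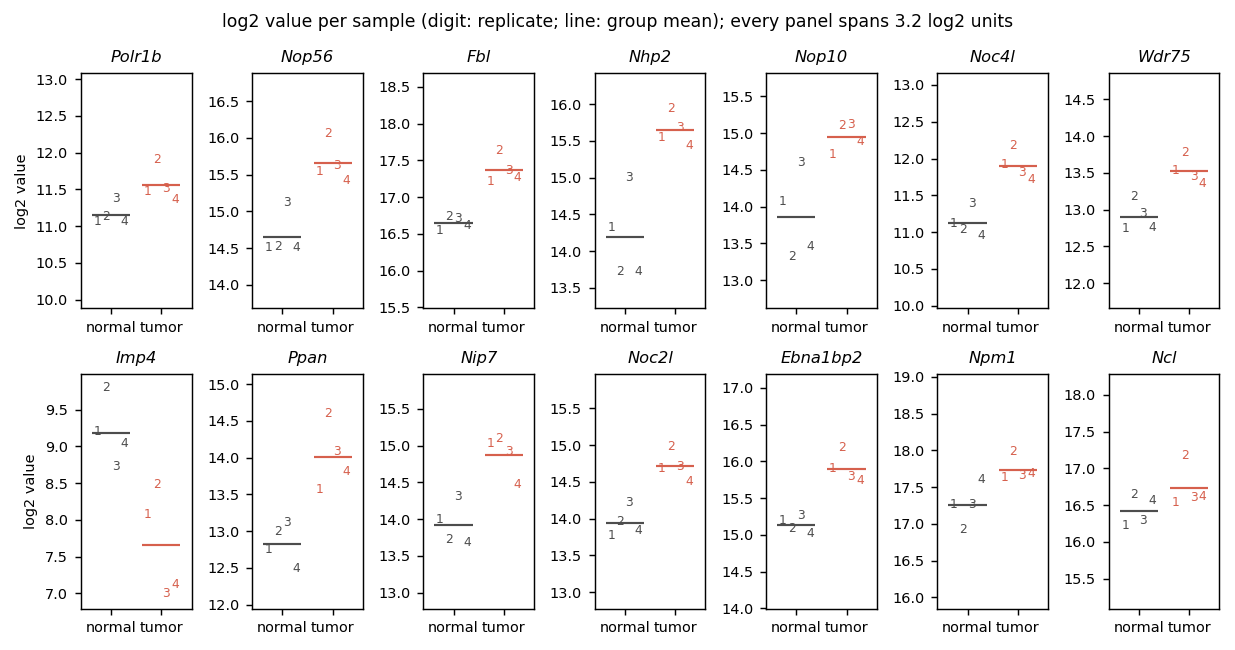
The log2 value in each sample for 14 factors, with the replicate number as the symbol, normals in grey, tumors in red and a line at each group mean. Tumor 2 is the highest tumor in most panels, normal 3 is often the highest normal, as for Nop56 at 15.11, and Imp4 is the 1 panel with tumors below normals.

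Across probes, 17 of 63 kept probes of the factors rose and 1 fell when the fit ran over all probes, where 5.62% of all kept probes rose. Of 17 factors with more than 1 kept probe, 7 had probes of opposite sign (Dkc1, Ebna1bp2, Ncl, Nop56, Polr1a, Utp14a and Utp20). Of the 56 probes with a known position and gene strand, all 56 lay on the strand of the gene.

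The factors varied together among samples of a group. Tumor 2 was the highest tumor for 36 of 40 factors, against 27.8% of all genes. The deviation of a sample was taken as the median over the 40 factors of the value minus the gene's mean over all 8 samples. It was 0.23, 0.65, 0.27 and 0.09 in tumors 1 to 4 and -0.35, -0.27, -0.14 and -0.45 in normals 1 to 4. All tumors were above all normals, tumor 4 being the lowest tumor and normal 3 the highest normal. Over all genes the same median was between -0.11 and 0.11 in every sample. Normal 3 was the highest normal for 22 of 40 factors, against 43.9% of all genes, and normal 2 for 15, against 19.5%. By equal replicate number the median difference was 0.63, 0.92, 0.42 and 0.51 in pairs 1 to 4. Pairs 1 and 2 are the traced columns, each pair within 1 slide, and 34 of 40 factors were higher in tumor in both, against 47.0% of all genes. In all 4 pairs 34 factors were higher, against 23.1% of all genes. A fit on those 4 traced columns alone called 0 of 21630 genes (limma; 4816 at an unadjusted p under 0.05), with a factor median of 0.73.

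Some markers of other cell types differed between the groups as well, beside the fall of 5 of 9 colon markers given above. For scale, 7.00% of all genes rose (3.66% with the block) and 7.54% fell. The mean of 8 epithelial markers was 17.36 to 17.45 in tumors and 17.49 to 17.83 in normals, with 0 of 8 past the test. Of 10 proliferation markers 2 rose, Pcna and Mcm2 (0.62 with an adjusted p of 0.045, 0.0613 in the blocked fit, and 0.69 with an adjusted p of 0.0474, 0.0779 in the blocked fit), and their list mean was 13.17 to 13.74 in tumors and 12.85 to 13.46 in normals. The cell cycle antigen Mki67 was at -0.49 ± 0.38 (adjusted p = 0.335). Of 6 neutrophil markers all 6 rose (5 with the block, Csf3r missing at an adjusted p of 0.0529), and the list mean was 11.50 to 13.30 in tumors and 6.42 to 10.31 in normals. For 8 general leukocyte markers, 0 of which passed, the mean was 10.21 to 10.53 in tumors and 8.96 to 10.05 in normals. Fibroblast markers (0 of 6 passed) ranged from 14.22 to 15.35 in tumors and from 12.18 to 15.03 in normals, and endothelial markers (1 of 5 rose) from 10.16 to 10.59 in tumors, all above the normals. Their part in the rise of the ribosome biogenesis factors was not tested.

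**Figure D3:**
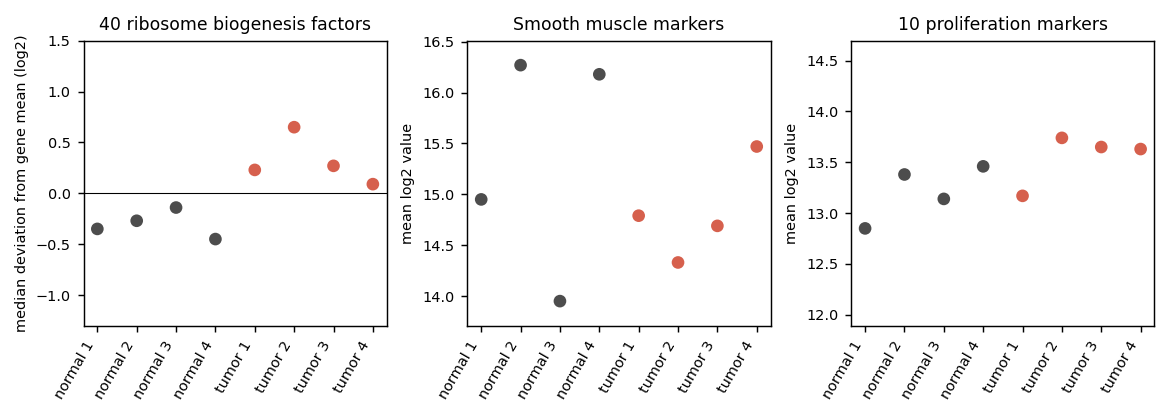
Left, median over the 40 factors of the log2 value minus the gene's mean, per sample; middle and right, mean log2 value of 7 smooth muscle and 10 proliferation markers. Normals are grey and tumors red: the factors separate the groups (0.09 to 0.65 against -0.45 to -0.14), smooth muscle is highest in normals 2 and 4, and the proliferation means overlap.

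The rest of the pathway was read from lists of 139 further genes with a probe in the fit. Of these, 34 rose, 1 fell and 104 did not pass, with a median difference of 0.38, against 0.15 over all genes. Over all genes 7.00% rose. With the block 7 of the 139 rose and 1 fell, a count near the background, since 3.66% of all genes rose in that fit. Without normal 3, 64 rose and 7 fell, where 31.7% of all genes rose and 19.8% fell. In the centred fit 14 rose, where 4.96% of all genes did. Leaving out any 1 of tumors 1 to 3 or normals 1, 2 and 4 left 0 or 1 past the threshold upward. In those fits 0.0740% to 1.79% of all genes rose.

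Among 20 further genes listed with RNA polymerase I 4 rose (2 with the block) and 0 fell. The list also holds the assembly factors Nop53 and Cebpz, which did not pass (adjusted p = 0.207 and 0.0708). Polr2l, a small subunit shared by the 3 nuclear RNA polymerases, rose by 1.31 ± 0.20 (adjusted p = 0.015, 0.0422 when blocked). Rrn3, the factor that makes RNA polymerase I ready to initiate, rose by 0.79 ± 0.19 (adjusted p = 0.034, 0.0606 when blocked). Of 45 further small subunit genes 13 rose (1 with the block) and 0 fell, led by Bysl (1.11 ± 0.29, adjusted p = 0.0434, 0.0528 when blocked) and Dimt1, which methylates the small subunit RNA (0.93 ± 0.18, adjusted p = 0.0219, 0.0458 when blocked). Of 51 further large subunit genes 11 rose (4 with the block) and 1 fell. Mrto4 rose by 1.15 ± 0.24 (adjusted p = 0.024, 0.0416 when blocked) and Rpf2, a partner of Rrs1, by 1.07 ± 0.21 (adjusted p = 0.0222, 0.0402 when blocked). The fall was in Sbds, which releases the anti-association factor Eif6 from the finished large subunit. Sbds fell by 0.87 ± 0.17 on the log2 scale (adjusted p = 0.0218, 0.0444 when blocked), from 16.41 ± 0.26 in normals to 15.54 ± 0.16 in tumors (SD, n = 4). It was named after its values were seen.

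Of 9 genes of small nucleolar particle assembly 3 rose (0 with the block), where 7.00% of all genes did (3.66% with the block). Among the 3 were the ATPase gene Ruvbl1 (0.97 ± 0.23, adjusted p = 0.0335, 0.05001 when blocked) and Snu13, which binds the box C/D RNA first (0.77 ± 0.15, adjusted p = 0.0231, 0.0519 when blocked). Myc was at 13.95, 13.86, 13.31 and 12.82 in tumors 1 to 4 and at 12.33, 12.50, 12.72 and 12.24 in normals 1 to 4. The lowest tumor, tumor 4, lay just above normal 3. Myc rose by 1.04 ± 0.27 (adjusted p = 0.0438, 0.0623 when blocked), and Mxd1, a repressor that competes with Myc for Max, fell by 0.89 ± 0.22 on the log2 scale (adjusted p = 0.0394, 0.0558 when blocked).

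**Figure D4:**
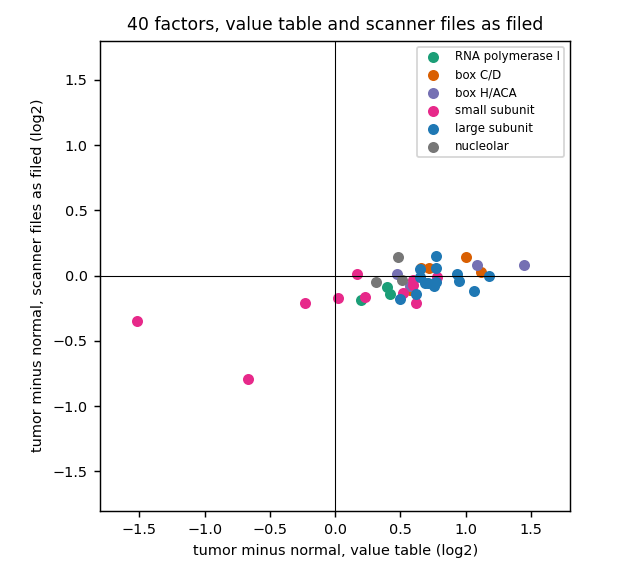
Tumor minus normal difference of the 40 factors from the value table (horizontal) against that from the scanner files with samples as filed (vertical), both log2. Along the horizontal axis 37 factors lie above 0, and along the vertical axis 14 do, most points lying near 0.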

How the data were processed

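Members, lists and tests were chosen with earlier results of these data known. Spot intensity in the deposited scanner output was, per the file headers, background-subtracted and detrended by Agilent Feature Extraction 9.5.1.1 (10.1.1.1 per the submitters' processing notes), on array design 014868 with mm8 coordinates. The share of probes well above background was 55.6% to 82.8%. The deposited value table holds log2 values: all columns have the median 8.51, so it was normalised between arrays by the authors, by a method not given in the sources used here. Columns were traced to files by Spearman correlation.

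Probes at or above 5.59 on at least 4 of 8 arrays were kept (31871 of 41174). Among probes that the scanner did not rate well above background, the 95th percentile was taken in each traced column. The limit is the median of these, and normal 1 alone gave 7.70, so values between 5.59 and that may be background there. Columns that were not traced have no such value, so their background level is not known. Names came from RefSeq genes of GRCm38.p6. The brightest kept probe (highest mean over 8 arrays) stood for a gene. The comparison used limma 3.58.1 (R 4.3.3; lmFit, eBayes, 2-sided, Benjamini-Hochberg over all genes, threshold 0.05), and the code was tested on simulated data. Errors are SE for differences and SD for levels, and 4 arrays per group limit the precision.

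Equal replicate numbers were treated as pairs because same-numbered samples deviated together (correlations of deviations from group means 0.24 to 0.53 over the 4 pairs, each over 0.1). Some samples of unlike number correlated as highly: tumor 4 with normal 2 at 0.38 (0.36 with its own number), tumor 1 with normal 3 at 0.28 (0.24 with its own) and tumor 2 with normal 4 at 0.35 (0.36 with its own), so the pairing is a working rule. As labelled, tumor and normal of a pair differ in Tcf4 genotype, so they are not from the same mouse. Slide could be assigned to the 4 traced columns only. Factors given in every sample were those past the threshold, at most 4 per role by adjusted p, the lowest adjusted p in a role with none, any that fell, and Ncl, Npm1 and Fbl; from each further list, Myc and the 2 largest changes past the threshold. Utp20 was added after its values were seen. 1 colon marker is not reported here, and the list was recomputed without it.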

Additional observations from a re-analysis of the deposited data

Results flagged for a closer look

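In groups of 4, a sample stood apart when its gap to the nearest value, divided by the range of the group, exceeded Dixon's 95% critical value. Of 80 groups (40 factors in tumors and in normals) 9 did so. The groups come from the same 8 samples and the factors varied together, so the 9 cannot be set against a chance rate. No share over all genes is given. Tumor 2 was the high sample in 5 of them: Nolc1 (12.95 against 12.11 to 12.18, ratio 0.917), Gar1 (13.68, next 13.14, ratio 0.857), Noc3l (10.32, next 9.52, ratio 0.879), Ncl (17.17, next 16.61, ratio 0.875) and Npm1 (17.98, next 17.68, ratio 0.833). Normal 3 was high for Nop56 (15.11, next 14.52, ratio 0.967) and low for Utp14a (9.29, next 9.77, ratio 0.873). Normal 2 was high for Nolc1 (11.97, next 11.61, ratio 0.90), and tumor 4 was low for Rrp9 (11.45, next 12.01, ratio 0.889).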

How the results depend on the processing

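Scanner values as filed differ from the value table in values, scaling and sample labels together. With scanner values as filed (minus the 75th percentile, with slide as a block, or with normexp and quantile scaling), limma called 0 genes, 0 factors up or down and 0 further genes up or down (433, 326 and 507 genes at an unadjusted p under 0.05). The factor median was then -0.05 in each of the 3. The sign turned for Polr1b (-0.09, -0.09 and -0.08), Noc4l (-0.01, -0.01 and 0), Wdr75 (-0.21, -0.21 and -0.19), Ebna1bp2 (-0.08, -0.08 and -0.13), Noc2l (-0.05 in all 3), Nip7 (-0.04, -0.04 and -0.02) and Ncl (-0.05, -0.05 and -0.09). The 4 traced columns alone, a choice made after seeing the data, called 0 genes, 0 factors and 0 further genes in either direction (17 factors higher at an unadjusted p under 0.05). With the replicate block, the pairs gave 1910 genes (3147 without it), 6 factors up and 7 further genes up. Without the dim filter 12 factors rose, where 4.08% of all genes did, and 0 fell. Among those given in every sample, the calls of Imp4, Nop10 and Wdr75 ended. With probes averaged 12 rose, where 5.63% of all genes did. Of those given in every sample, Nop56, Nop10, Ebna1bp2 and Nip7 lost their calls and Npm1 gained one (0.54, limma adjusted p = 0.0494). Further genes up numbered 19 with probes averaged and 14 in the centred fit, where 2 fell. Leaving out 1 sample gave 21 (without tumor 3) to 11136 genes (without normal 3), 159 without normal 4, 0 to 26 factors up, 0 to 2 down, 0 to 64 further genes up and 0 to 7 down, and a factor median of 0.54 to 0.70. The causes were not tested. With the limit passed on all 8 arrays, 21 factors rose, where 9.95% of all genes did. With trend and robust fitting 23 rose, where 9.20% of all genes did. The block changed no other call among the factors given in every sample than those printed beside the results.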

Other observations

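The RNA exosome, which trims ribosomal RNA precursors, was read by 14 genes, of which 3 rose (0 with the block) and 0 fell (median 0.43). Over all genes 7.00% rose (3.66% with the block) and 7.54% fell, with a median of 0.15. The 2 largest exosome changes were Exosc4, which rose by 0.90 ± 0.21 (limma adjusted p = 0.0314, 0.0561 with the block), and Exosc1, by 0.69 ± 0.17 (adjusted p = 0.0374, 0.0637 with the block). In the Myc network, Mycn, Max, Mnt and Mxd4 did not pass (0.60, -0.35, 0.24 and -0.10; adjusted p = 0.0989, 0.207, 0.284 and 0.709). Maf1, a repressor of RNA polymerase III, was at 0.07 ± 0.13 (adjusted p = 0.685).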
